A study of Mus musculus with 9 samples.

Results

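The genes described here are 37 cytokine, chemokine and NF-kB inflammation genes, taken by symbol from the 27339 genes of a bulk RNA sequencing table of mouse brain. All 37 symbols were present. The tissue was labelled as substantia nigra pars compacta, the midbrain nucleus that holds the dopamine neurons lost in Parkinson's disease. Of the 9 libraries, 3 came from controls (Ctrl), 3 from mice given MPTP, and 3 from mice given MPTP and also fed a medium-chain triglyceride ketogenic diet (MPTP + MCT-KD, the diet group below). MPTP is a toxin that dopamine neurons take up in oxidised form, by way of their dopamine transporter, where it inhibits respiration in the mitochondria. Mice on the diet but without the toxin were not analysed here. The sources used here give no strain, sex, age, dose or timing. They also do not state that the libraries are separate animals, so p-values below measure only the spread between libraries, which may be technical.

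Levels of the 37 members in the nigra ran from no count in any library to a mean FPKM of 13.6. The NF-kB subunits Rela and Nfkb1, the inhibitor Nfkbia, the chemokine Cxcl12, the cytokine Il18 and the adhesion molecule Vcam1 were the 6 members with a mean FPKM of at least 5. FPKM counts fragments per kilobase of transcript and per M of mapped fragments (M, the SI prefix mega), which allows levels to be compared between genes. A further 12 members lay between 0.5 and 5 FPKM. The other 19 had a mean FPKM under 0.5. These were the cytokines Tnf, Il1b, Il1a, Il6 and Il10, the chemokines Ccl2, Ccl3, Ccl4, Ccl5, Ccl7, Ccl12, Cxcl1 and Cxcl2, the receptor gene Tlr4, the inflammasome genes Nlrp3 and Casp1, and the enzyme genes Nos2, Ptgs2 and Cybb. Just above the minimum lay Pycard at 0.712 and Icam1 at 0.73 FPKM, and just below it Casp1 at 0.348 and Tlr4 at 0.333 FPKM. None of the 18 members above that minimum passed the test in any of the 3 comparisons. Those with the smallest p-values were Vcam1, which was lowest in the MPTP and diet libraries, Nfkbia, which was higher in the diet group than in MPTP, and Il4ra, which was highest in MPTP.

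NF-kB is a family of paired transcription factors, formed from subunits such as RelA, RelB, p50 (made from Nfkb1) and p52 (made from Nfkb2). In resting cells the inhibitor IkB-alpha, the product of Nfkbia, holds the RelA pairs in the cytoplasm. Ligands of Toll-like receptors and of the interleukin-1 receptor act through the adaptor MyD88, and the TNF receptors through adaptors of their own, to have the inhibitor degraded. The released factor then enters the nucleus and switches on cytokines, chemokines, adhesion molecules and its own inhibitors, Nfkbia and Tnfaip3 among them. In the brain microglia, border macrophages and endothelium are well-known sites of this response, and microglial activation around dying dopamine neurons is a much-studied feature of the MPTP model.

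NF-kB binds a motif known as the kB site. The consensus kB motif, 10 letters long, was searched on both strands, with overlapping matches allowed, in the 250 bases before each start site of the RefSeq promoters (GRCm38.p6). Of the 37 members, 26 had such a promoter, and 10 of the 26 (38.5%) held a match. The share over all genes with a promoter searched was 2225 of 27025 (8.23%), and over all promoters searched 2382 of 32851 (7.25%). Promoters on a chromosome that holds no member were left out of the search. A match is a run of letters and does not show that a factor binds there. Stretches of 150 bases that end just before the start site are printed for an inhibitor and a cytokine with a match that are expressed here, for a cytokine with a match that is nearly silent, and for the chemokine of highest level, which had no match in its window. The sequences run 5′ to 3′ on the gene's strand, and capitals mark the kB match.
Nfkbia: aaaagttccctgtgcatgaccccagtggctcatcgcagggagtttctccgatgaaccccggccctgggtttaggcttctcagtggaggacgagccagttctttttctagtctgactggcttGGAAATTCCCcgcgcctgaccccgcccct
Tgfb1: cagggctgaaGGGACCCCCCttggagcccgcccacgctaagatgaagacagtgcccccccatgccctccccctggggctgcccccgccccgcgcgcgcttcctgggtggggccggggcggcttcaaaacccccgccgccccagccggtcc
Il6: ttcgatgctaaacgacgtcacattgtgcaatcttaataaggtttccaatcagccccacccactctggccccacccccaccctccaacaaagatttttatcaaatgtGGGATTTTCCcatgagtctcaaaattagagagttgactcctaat
Cxcl12: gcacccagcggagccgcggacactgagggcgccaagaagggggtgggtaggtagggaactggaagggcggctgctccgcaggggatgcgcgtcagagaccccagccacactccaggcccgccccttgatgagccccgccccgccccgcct
The Nfkbia stretch is chr12:55492648-55492797 on the minus strand, and its match begins 29 bases before the start. The Tgfb1 stretch is chr7:25686852-25687001 on the plus strand, with a match from 140 bases before the start. The Il6 stretch is chr5:30012964-30013113 on the plus strand, with a match from 44 bases before the start, and the Cxcl12 stretch is chr6:117168385-117168534 on the plus strand. None of these stretches contains an annotated exon.

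The libraries held 33.2 to 40 M counts each. The 7 dopamine neuron markers summed to 476 to 563 CPM in Ctrl, 345 to 422 CPM in MPTP and 337 to 422 CPM in the diet group, so the markers of the labelled tissue were present in every library (CPM is the count per M of scaled library size). In bulk tissue, fewer cells of a type and less RNA per cell cannot be told apart. The 9 microglia markers summed to 278 to 306 CPM in Ctrl, 304 to 326 CPM in MPTP and 320 to 329 CPM in the diet group. Markers of blood leukocytes were near 0: 5 T cell markers summed to 0.199 to 1.01 CPM with Cd3d at 0 in all libraries, and 9 neutrophil and monocyte markers to at most 2.1 CPM with Ly6g at 0. Choroid plexus markers summed to 1246 CPM in Ctrl 3 and to 27.4 to 103 CPM in the other libraries. The 12 markers of meningeal fibroblasts varied within every group, from 87.4 CPM in MPTP 1 to 332 CPM in diet 3.

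**Figure D1:**
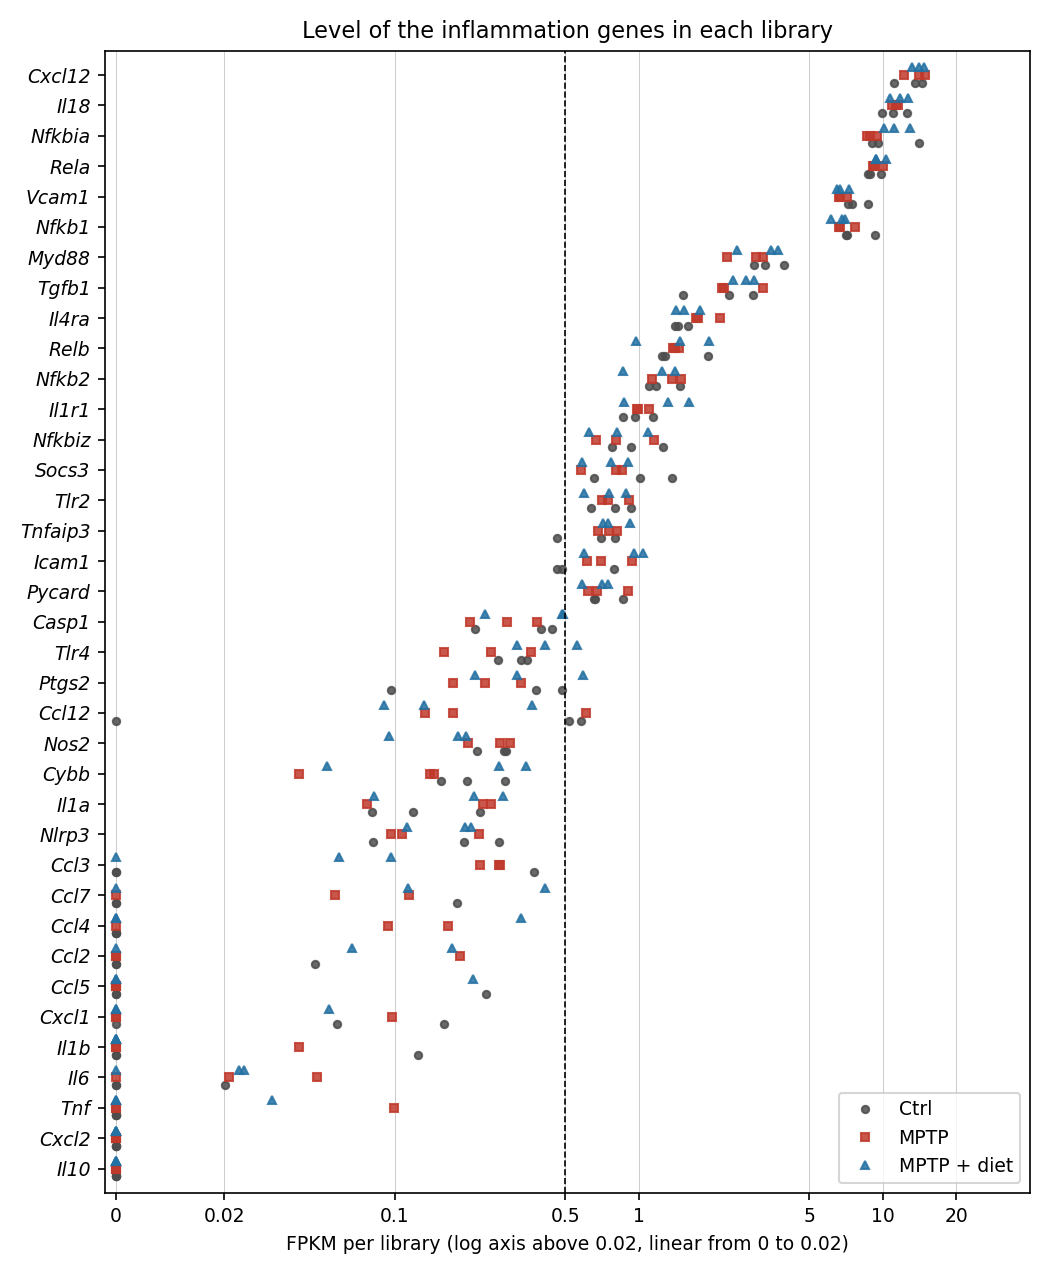
Level of each of the 37 members in each library, in FPKM on an axis that is logarithmic above 0.02 and linear below. Each point is 1 library, coloured by group, genes are ordered by mean FPKM, and the dashed line marks the minimum of 0.5. The 6 genes at the top have means from 7.14 to 13.6 FPKM, while most chemokines have libraries at 0.

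Cytokines are the secreted messengers of the response. Of the 7 listed, Il18 and Tgfb1 passed the minimum. Il18, which needs caspase-1 to become active, had a mean of 11.3 FPKM, above the median of 7.78 FPKM over all genes tested. It stood at 11.3, 10.1 and 8.84 CPM in Ctrl, at 10.3, 9.67 and 10 CPM in MPTP and at 9.32, 11.7 and 10.7 CPM in the diet group. The 3 groups overlapped, and the MPTP libraries lay inside the range of Ctrl. The 95% interval of the log2 fold change of Il18 ran from -0.292 to 0.274 for MPTP against Ctrl and from -0.201 to 0.366 for the diet group against MPTP. Il18 overlaps the counted genes Bco2 and Tex12 on the other strand, and without a stated strand setting their reads cannot be told apart. Tgfb1, an immune-restraining cytokine, had a mean of 2.51 FPKM. Its levels were 5.36, 3.53 and 6.64 CPM in Ctrl, 5.17, 5.03 and 7.18 CPM in MPTP, and 6.59, 5.40 and 6.34 CPM in the diet group. Ctrl 2 was the lowest library and MPTP 3 the highest, and the groups overlapped.

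The other 5 cytokines were under the minimum and are given as raw counts. Tnf, a main activator of NF-kB, had no count in Ctrl, 6 counts in MPTP 3 only, and 2 counts in diet 1 only. Il1b, the chief ligand of the interleukin-1 receptor, had 7 counts in Ctrl 3, 3 counts in MPTP 3 and none in the other 7 libraries. Il6, the cytokine whose promoter is shown above, had 2 counts in each of Ctrl 3, MPTP 1, MPTP 3 and diet 1, 3 in diet 2 and none elsewhere. Each of these 3 cytokines was thus at 0 in at least 4 of the 9 libraries. Il1a, which shares the receptor of Il1b, was counted in every library, with 10, 19 and 6 counts in Ctrl, 18, 6 and 18 in MPTP and 6, 15 and 21 in the diet group. Il10, the anti-inflammatory cytokine, had no count in any library. A count of 0 allows up to 3 counts, which is 0.0748 to 0.0904 CPM in a single library and 0.00934 CPM over all 9. The floors here cover counting error only. The intervals of the fold changes come from a fit that also takes in the spread between libraries, which may be technical. Single counts were rarer than pairs (106 to 137 genes with 1 count and 471 to 519 genes with 2 in a library).

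Chemokines draw leukocytes along a gradient. Cxcl12, a chemokine made constitutively in brain, had the highest mean of all members at 13.6 FPKM, and 33.5% of the genes tested lay at or above that level. Cxcl12 stood at 51.7, 64.2 and 69.4 CPM in Ctrl, at 74.3, 61.5 and 71.0 CPM in MPTP and at 68.6, 65.5 and 66.6 CPM in the diet group. The lowest library was Ctrl 1, and the ranges of the 3 groups overlapped. Its log2 fold change had a 95% interval of -0.0616 to 0.379 for MPTP against Ctrl, -0.263 to 0.177 for the diet group against MPTP and -0.104 to 0.336 for the diet group against Ctrl. The other 8 chemokines were under the minimum, and the highest count of any of them in any library was 13. Cxcl2, a neutrophil attractant, had no count in any library.

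Of the monocyte attractants, Ccl2 had 2 counts in Ctrl 1, 6 in MPTP 2, 3 in diet 1 and 5 in diet 2, and none in the other libraries. Ccl2 overlaps the counted gene Gm17268 on the other strand, so its few reads may be shared. Ccl7 had 6 counts in Ctrl 2, 2 and 4 in MPTP 2 and 3, and 12 and 4 in diet 2 and 3. Ccl12 had 0, 13 and 10 counts in Ctrl, 4, 3 and 12 in MPTP and 8, 3 and 2 in the diet group. No group stood apart for these 3 genes. Ccl3, a chemokine released by activated myeloid cells, had 0, 12 and 0 counts in Ctrl, 8, 6 and 8 in MPTP and 2, 3 and 0 in the diet group. For Ccl3 all 3 diet libraries lay below all 3 MPTP libraries, at counts so low that the fit without a minimum gave an unadjusted p of 0.248. In that comparison the groups did not overlap for 13.7% of the genes tested. Ccl4 had counts in MPTP 1 (3), MPTP 2 (4) and diet 2 (8) and none in Ctrl. Ccl5 had 5 counts in each of Ctrl 3 and diet 1 alone, and the neutrophil attractant Cxcl1 had 7 and 2 in Ctrl 1 and 3, 4 in MPTP 2 and 2 in diet 1. The neutrophil and monocyte markers summed to 1.55, 1.48 and 2.1 CPM in MPTP, above the 0.0572 to 0.748 CPM of Ctrl and the 0.259 to 0.836 CPM of the diet group, led by Ly6c2 at 1.16 CPM in MPTP 1 and 1.07 CPM in MPTP 3. In MPTP 2, however, Ly6c2 was at 0.0904 CPM, below Ctrl 1, Ctrl 2 and all diet libraries. The highest markers in MPTP 2 were S100a9 at 0.543 CPM and S100a8 at 0.452 CPM, while Ngp was highest in diet 2 at 0.328 CPM. The part of these markers in the Ccl3 counts was not tested.

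**Figure D2:**
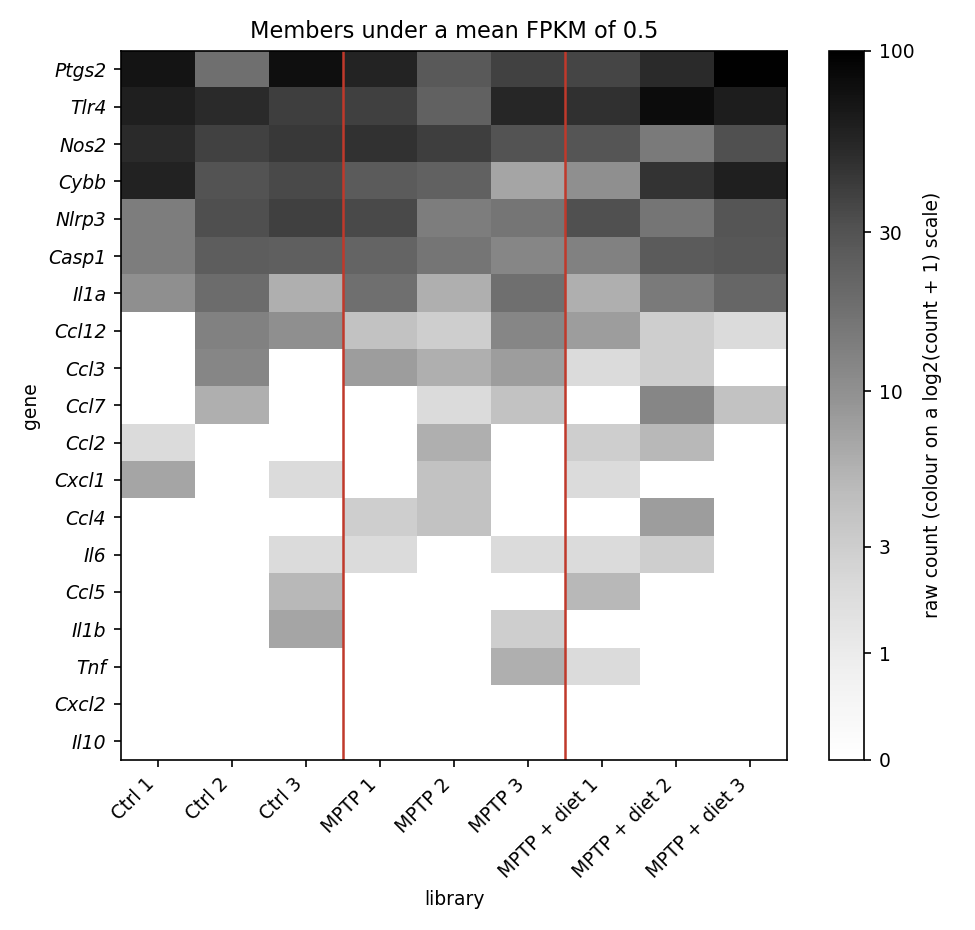
Raw counts of the 19 members with a mean FPKM under 0.5, 1 row per gene and 1 column per library, with darker cells for higher counts on a log2(count + 1) scale and lines between Ctrl, MPTP and the diet group. Cxcl2 and Il10 are blank throughout, and 12 of the 37 members are blank in at least 1 library.

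Receptors and adaptors carry the signal into the cell, and 4 of the 5 listed passed the minimum. Il4ra, the shared receptor chain for interleukin-4 and interleukin-13, lies on chromosome 7 from 125552120 to 125579474 (GRCm38) and had a mean of 1.64 FPKM. It stood at 7.85, 8.07 and 8.58 CPM in Ctrl, at 9.77, 10.2 and 8.75 CPM in MPTP and at 8.60, 8.71 and 7.96 CPM in the diet group. All 3 MPTP libraries were above all 6 others, although MPTP 3 exceeded diet 2 by little. The log2 fold change of Il4ra was 0.23 for MPTP against Ctrl (SE 0.126, 95% interval -0.0413 to 0.502, adjusted p = 0.915) and -0.19 for the diet group against MPTP (SE 0.126, interval -0.457 to 0.0867, adjusted p = 0.747). Both comparisons use the same MPTP libraries. The implied transcript length of Il4ra, count over FPKM, differed by a factor of 1.18 between libraries.

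Il1r1, the signalling receptor of interleukin-1, lies on chromosome 1 from 40225080 to 40317257 and had a mean of 1.09 FPKM. Its levels were 6.98, 5.32 and 5.81 CPM in Ctrl, 5.11, 6.03 and 5.44 CPM in MPTP and 5.41, 6.86 and 8.27 CPM in the diet group. Diet 3, Ctrl 1 and diet 2 were the highest in that order, and the groups overlapped. The log2 fold change of Il1r1 for the diet group against MPTP was 0.31 (SE 0.188, interval -0.0953 to 0.714, adjusted p = 0.717), and it was 0.15 without diet 3. The same 3 libraries, diet 3, Ctrl 1 and diet 2, held the most meningeal fibroblast markers, at 332, 286 and 266 CPM, against 87.4 to 212 CPM in the other 6. With the meningeal score as a covariate in the same test the log2 fold change of Il1r1 was 0.12 (adjusted p = 0.923). The part of the meningeal markers in the Il1r1 levels was not tested.

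Myd88, the adaptor of the Toll-like and interleukin-1 receptors, had a mean of 3.16 FPKM and stood at 6.81, 8.22 and 6.01 CPM in Ctrl, 4.80, 6.21 and 6.48 CPM in MPTP and 7.31, 7.70 and 5.29 CPM in the diet group. MPTP 1 was the lowest and Ctrl 2 the highest, and the groups overlapped. Its reads may be shared with the overlapping genes Slc22a14 and Acaa1a. Tlr2, a receptor for bacterial lipoproteins, had a mean of 0.775 FPKM and ranged from 1.90 CPM in diet 3 to 3.01 CPM in Ctrl 2, with similar means of 2.51 ± 0.495 CPM in Ctrl, 2.51 ± 0.356 CPM in MPTP and 2.40 ± 0.486 CPM in the diet group (SD, n = 3). Tlr4, the receptor of bacterial endotoxin, was under the minimum. Tlr4 had 61, 51 and 40 counts in Ctrl, 39, 23 and 54 in MPTP and 48, 81 and 63 in the diet group. With no minimum on the level, Tlr4 had the smallest p of the untested members (unadjusted p = 0.0515 and adjusted p = 0.84 by edgeR's quasi-likelihood test, diet group against MPTP), and MPTP 3 lay above diet 1.

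The canonical NF-kB subunits Rela and Nfkb1 had the smallest spread within groups of the 18 members tested. Rela, the main activating subunit, had a mean of 9.41 FPKM and stood at 24.9, 25.6 and 27.6 CPM in Ctrl, 26.3, 28.5 and 25.7 CPM in MPTP and 27.1, 29.5 and 27.2 CPM in the diet group. Nfkb1, the source of p50, had a mean of 7.14 FPKM and stood at 28.6, 27.2 and 27.3 CPM in Ctrl, 25.5, 27.4 and 28.3 CPM in MPTP and 28.1, 27.1 and 25.1 CPM in the diet group. For both genes the ranges of the groups overlapped, and the coefficient of variation within groups averaged 5.35% for Rela and 4.59% for Nfkb1. The 95% intervals of their log2 fold changes stayed between -0.216 and 0.271 over the 3 comparisons. The implied length of Nfkb1 differed by a factor of 1.39 between libraries, so its FPKM and CPM values need not move together.

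The subunits of the non-canonical branch were less abundant and more variable. Nfkb2, the source of p52, ranged from 2.96 CPM in diet 1 to 5.03 CPM in MPTP 2, with means of 4.15 ± 0.715 CPM in Ctrl, 4.40 ± 0.737 CPM in MPTP and 3.92 ± 0.911 CPM in the diet group (SD, n = 3). Relb, the partner of p52, ranged from 2.30 CPM in diet 1 to 4.54 CPM in diet 2, with means of 3.41 ± 0.864, 3.28 ± 0.0479 and 3.44 ± 1.12 CPM in the same order of groups. The diet group thus held both the lowest and the highest library for Relb, and it overlapped the other groups for both genes. Nfkb2 overlaps the counted gene Psd on the other strand.

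Feedback inhibitors and co-regulators are themselves switched on by NF-kB or cytokine signals, so their transcripts are often read as a sign of recent signalling. Nfkbia, which encodes IkB-alpha and carries the kB match shown above, lies on chromosome 12 from 55489410 to 55492647 and had a mean of 10.4 FPKM. It stood at 23.3, 16.0 and 14.8 CPM in Ctrl, at 14.9, 15.7 and 13.9 CPM in MPTP and at 17.0, 21.5 and 18.5 CPM in the diet group. All 3 diet libraries were above all 3 MPTP libraries, while Ctrl 1 was the highest library of all and the other Ctrl libraries lay near or within the MPTP range. The log2 fold change of Nfkbia for the diet group against MPTP was 0.36 (SE 0.157, interval 0.0155 to 0.70, adjusted p = 0.63). For MPTP against Ctrl it was -0.28 (SE 0.157, interval -0.624 to 0.0591, adjusted p = 0.915), and it was -0.05 without Ctrl 1. For the diet group against Ctrl the interval was -0.264 to 0.414.

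The 3 libraries with the most Nfkbia, Ctrl 1, diet 2 and diet 3, were also the 3 with the most meningeal fibroblast markers. With the meningeal score as a covariate the log2 fold change of Nfkbia was 0.25 for the diet group against MPTP (adjusted p = 0.795) and -0.16 for MPTP against Ctrl. MPTP 3, at 196 CPM of meningeal markers, had less Nfkbia than MPTP 1 and MPTP 2, at 87.4 and 104 CPM. Border macrophage markers summed to 10.4 to 13 CPM in Ctrl, 8.38 to 10.1 CPM in MPTP and 11 to 18.2 CPM in the diet group. For this sum too all diet libraries were above all MPTP libraries, while Cd163, Mrc1 and Pf4 singly overlapped. The part of either marker list in the Nfkbia levels was not tested.

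**Figure D3:**
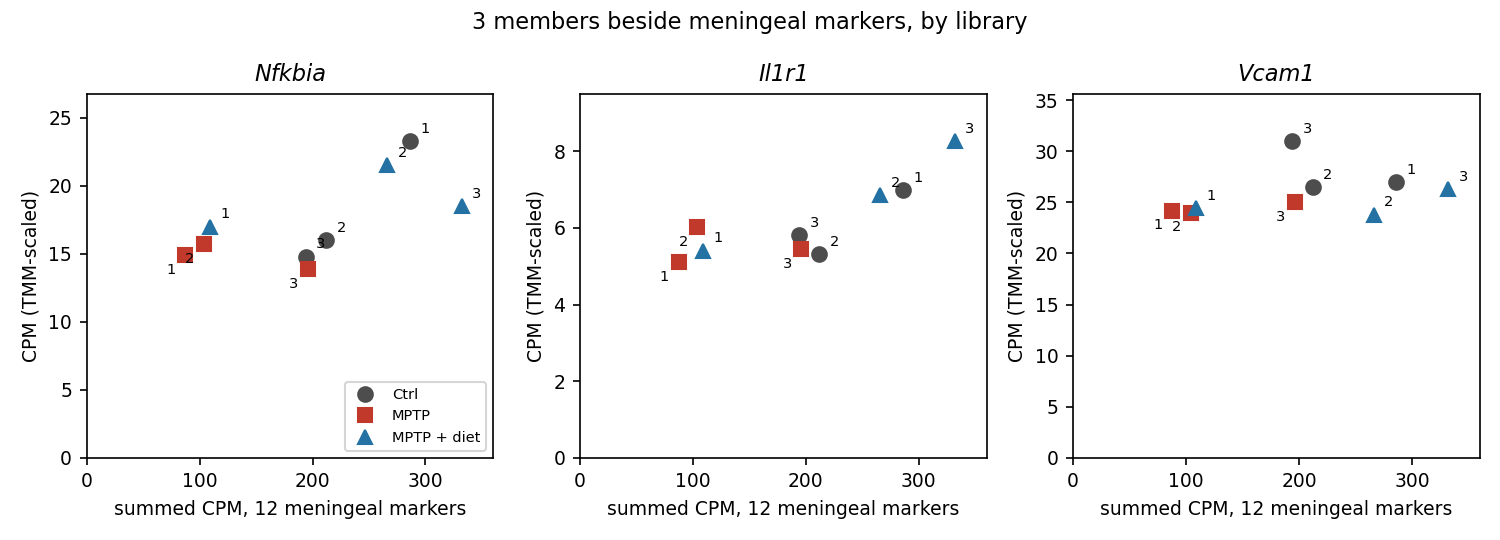
CPM of Nfkbia, Il1r1 and Vcam1 against the summed CPM of 12 meningeal fibroblast markers. Each point is 1 library, coloured by group and numbered by replicate. Ctrl 1, diet 2 and diet 3 lie farthest to the right and hold the highest levels of Nfkbia and Il1r1, while the highest Vcam1 level is in Ctrl 3.

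Tnfaip3, which encodes the ubiquitin-editing inhibitor A20, had a mean of 0.731 FPKM and stood at 2.17, 3.76 and 3.23 CPM in Ctrl, 3.19, 3.80 and 3.39 CPM in MPTP and 3.51, 3.34 and 4.35 CPM in the diet group. Ctrl 1, the library with the most Nfkbia, had the least Tnfaip3, and the groups overlapped. Nfkbiz, a nuclear IkB protein that promotes some secondary response genes, ranged from 2.60 CPM in MPTP 1 to 4.78 CPM in diet 3, with overlapping groups. Socs3, the inhibitor of signalling from the interleukin-6 family, lies on chromosome 11 from 117966079 to 117970047 and had a mean of 0.836 FPKM. Its levels were 1.77, 2.75 and 3.63 CPM in Ctrl, 2.32, 1.57 and 2.13 CPM in MPTP and 2.45, 1.58 and 2.10 CPM in the diet group. Ctrl 3 and Ctrl 2 were the highest, but Ctrl 1 lay inside the range of both other groups. The log2 fold change of Socs3 for the diet group against Ctrl was -0.41 (SE 0.308, interval -1.07 to 0.255, adjusted p = 0.849). Without Ctrl 3, the library with the most choroid plexus markers, it was -0.14, and without Ctrl 1 it was -0.64.

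The inflammasome cleaves and activates interleukin-1 beta and interleukin-18. Its adaptor Pycard passed the minimum at 0.712 FPKM, ranging from 2.30 CPM in diet 1 to 3.47 CPM in MPTP 1, with means of 2.91 ± 0.432 CPM in Ctrl, 2.86 ± 0.538 CPM in MPTP and 2.72 ± 0.371 CPM in the diet group (SD, n = 3). The protease Casp1, at a mean of 0.348 FPKM, had 14, 25 and 24 counts in Ctrl, 22, 16 and 12 in MPTP and 13, 26 and 28 in the diet group. The sensor Nlrp3 had 14, 32 and 39 counts in Ctrl, 34, 14 and 16 in MPTP and 31, 16 and 29 in the diet group. For all 3 genes the groups overlapped. Il18, the substrate, was thus at a mean FPKM of 11.3, with the protease that activates it at 0.348 and the sensor at 0.164.

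Adhesion molecules let leukocytes hold on to the vessel wall. Vcam1, the ligand of the integrin alpha4 beta1, lies on chromosome 3 from 116109949 to 116129688 and had a mean of 7.14 FPKM. It stood at 27.0, 26.5 and 31.0 CPM in Ctrl, at 24.2, 24.0 and 25.0 CPM in MPTP and at 24.4, 23.8 and 26.3 CPM in the diet group. All 3 Ctrl libraries were above all 6 others, by the narrowest margin for Ctrl 2 over diet 3, and Ctrl 3 was the highest. The log2 fold change of Vcam1 was -0.21 for MPTP against Ctrl (SE 0.0833, interval -0.385 to -0.0265, adjusted p = 0.893) and -0.18 for the diet group against Ctrl (SE 0.0833, interval -0.36 to -0.00156, adjusted p = 0.74). The same Ctrl libraries enter both, and without Ctrl 3, which also held the most choroid plexus markers, the values were -0.13 and -0.11. Between the diet group and MPTP the interval was -0.155 to 0.205. Endothelial markers summed to 284 to 293 CPM in Ctrl, 289 to 319 CPM in MPTP and 284 to 307 CPM in the diet group, overlapping between the groups. Mural cell markers summed to 336, 328 and 314 CPM in Ctrl, 300, 287 and 310 CPM in MPTP and 280, 355 and 340 CPM in the diet group. For this sum too all MPTP libraries were below all Ctrl libraries. Singly, Acta2, Tagln and Myh11 did the same, while Vtn, Pdgfrb, Rgs5 and Kcnj8 overlapped between MPTP and Ctrl. The part of these markers in the Vcam1 levels was not tested.

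Icam1, the ligand of the leukocyte integrins LFA-1 and Mac-1, lies on chromosome 9 from 21015985 to 21028817 and had a mean of 0.73 FPKM. Its levels were 1.25, 2.15 and 1.29 CPM in Ctrl, 1.67, 1.87 and 2.44 CPM in MPTP and 1.61, 2.57 and 2.81 CPM in the diet group. Ctrl 1 and Ctrl 3 were the lowest libraries and diet 3 and diet 2 the highest, but Ctrl 2 lay inside the diet range. The log2 fold change of Icam1 for the diet group against Ctrl was 0.58 (SE 0.319, interval -0.112 to 1.26, adjusted p = 0.785), the largest in size of any tested member in the 3 comparisons. Without Ctrl 2 it was 0.88.

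The effector enzymes make the reactive products of inflammation, and all 3 were under the minimum. Ptgs2, the inducible cyclooxygenase, had 72, 18 and 78 counts in Ctrl, 56, 27 and 38 in MPTP and 36, 51 and 98 in the diet group. Nos2, the inducible nitric oxide synthase, had 51, 38 and 43 counts in Ctrl, 47, 40 and 30 in MPTP and 29, 15 and 31 in the diet group. In CPM all 3 diet libraries were below all 3 Ctrl libraries for Nos2, where 12.7% of the genes tested had groups that did not overlap. The fit without a minimum gave Nos2 an unadjusted p of 0.11 there by edgeR's quasi-likelihood test. Cybb, the catalytic subunit of the phagocyte oxidase, had 57, 30 and 34 counts in Ctrl, 26, 23 and 7 in MPTP and 10, 46 and 61 in the diet group. In CPM all 3 MPTP libraries were below all 3 Ctrl libraries for Cybb, where 10.5% of the genes tested did not overlap. The same fit gave an unadjusted p of 0.119 for it. Cybb was highest in diet 3, Ctrl 1 and diet 2 (1.73, 1.42 and 1.37 CPM), the 3 libraries with the most meningeal markers. The sum of the border macrophage markers was also lower in every MPTP library than in every Ctrl library, by the values given beside Nfkbia. Singly only Mrc1 did the same, while Cd163, Ms4a7, Pf4, Lyve1 and F13a1 overlapped between MPTP and Ctrl. The part of either marker list in the Cybb counts was not tested. In the fit without a minimum, 0 of the 17 under-minimum members with any count had an unadjusted p under 0.05, and their smallest adjusted p was 0.84.

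**Figure D4:**
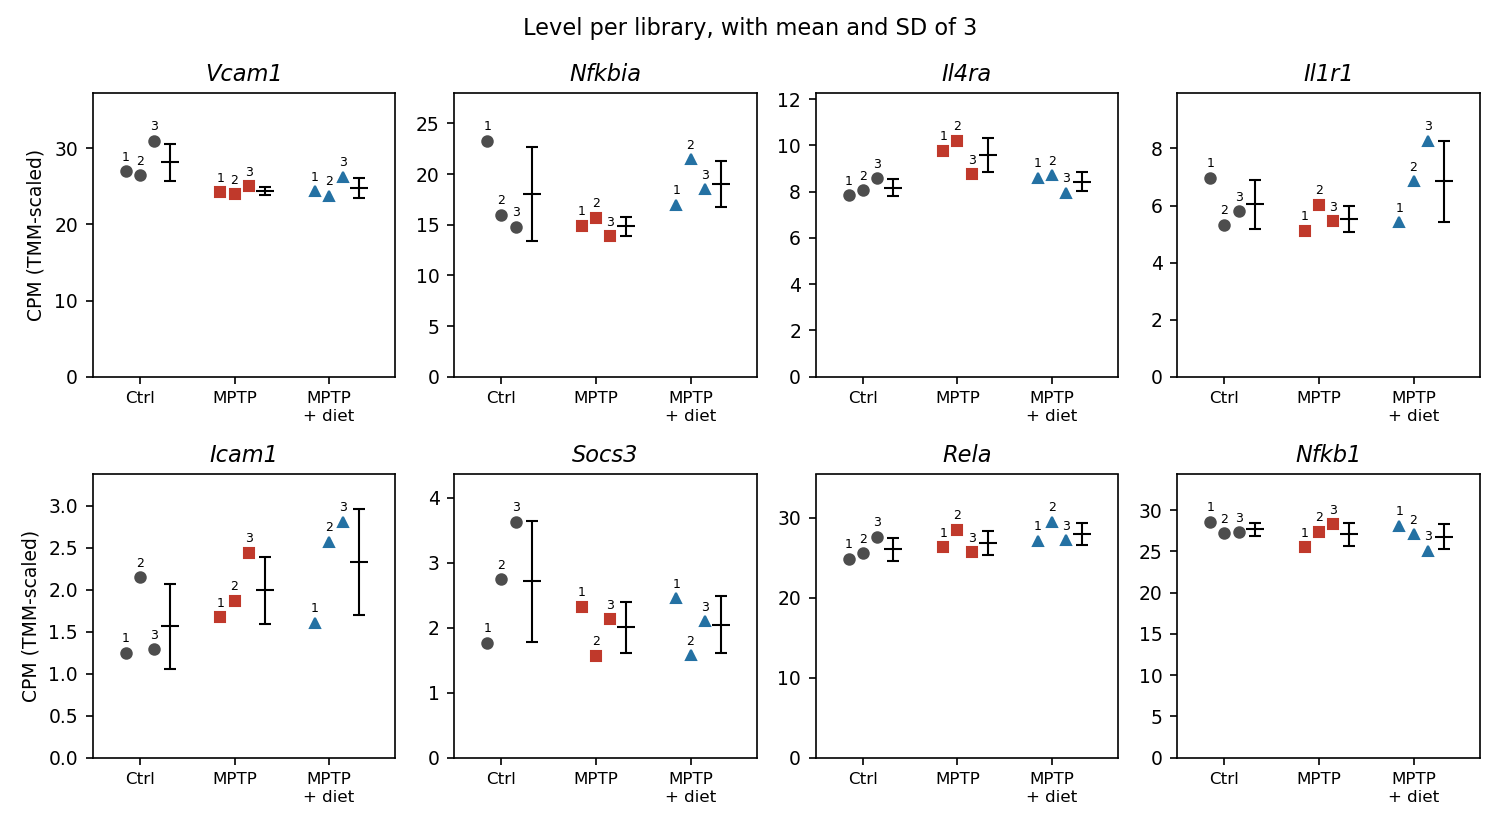
CPM of members in each library, 1 panel per gene, with points for libraries numbered by replicate and bars for the mean and SD of 3. Vcam1 is lower in all MPTP and diet libraries than in Ctrl, Il4ra is highest in MPTP, and Nfkbia is higher in the diet group than in MPTP with Ctrl spanning both.

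The comparison of MPTP with Ctrl asks what the toxin changed. No member passed at an adjusted p under 0.05 by edgeR's quasi-likelihood test (0 of 18, where 0.0134% of all genes tested were called). At an unadjusted p under 0.05 there was 1 of 18, Vcam1, against 5.36% of all genes. The groups did not overlap for 2 of 18, Vcam1 and Il4ra, against 10.5% of all genes. The median log2 fold change of the 18 was -0.015, with 8 above Ctrl and 10 below, and the median over all genes was -0.000921. The 4 feedback inhibitors and co-regulators had a median of -0.252, with 1 above Ctrl and 3 below, and the 4 NF-kB subunits a median of 0.00495.

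The comparison of the diet group with MPTP asks what the diet changed in mice given the toxin. Of the 18 members 0 passed (0% of all genes). At an unadjusted p under 0.05 there was again 1 of 18, Nfkbia, against 7.78% of all genes. The groups did not overlap for 2 of 18, Nfkbia and Il4ra, against 13.7% of all genes. The median was 0.0428, with 12 above MPTP and 6 below, and the median over all genes was 0.000556. Over all genes 50.2% were above MPTP. All 4 feedback inhibitors and co-regulators were above MPTP, with a median of 0.0687, and apart from Nfkbia each of their groups overlapped. Tnfaip3 at 0.11 (SE 0.238), Nfkbiz at 0.0273 (SE 0.265) and Socs3 at 0.0268 (SE 0.311) were above by less than their SE.

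Between the diet group and Ctrl 0 of 18 members passed as well (0% of all genes). Vcam1 was the 1 member of 18 at an unadjusted p under 0.05 (6.73% of all genes) and the 1 whose groups did not overlap (12.7% of all genes). The median was 0.0285, with 10 above Ctrl and 8 below, and the median over all genes was -0.00146. As 1 of 18 is 5.56% and 2 of 18 is 11.1%, the shares of members at these marks lay near or below the background in each comparison. No tested member differed by more than 1 on the log2 scale in any comparison. The 95% intervals of the 18 members reached from -1.1 to 1.26 over the 3 comparisons, widest for the less abundant Icam1 and Socs3.

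**Figure D5:**
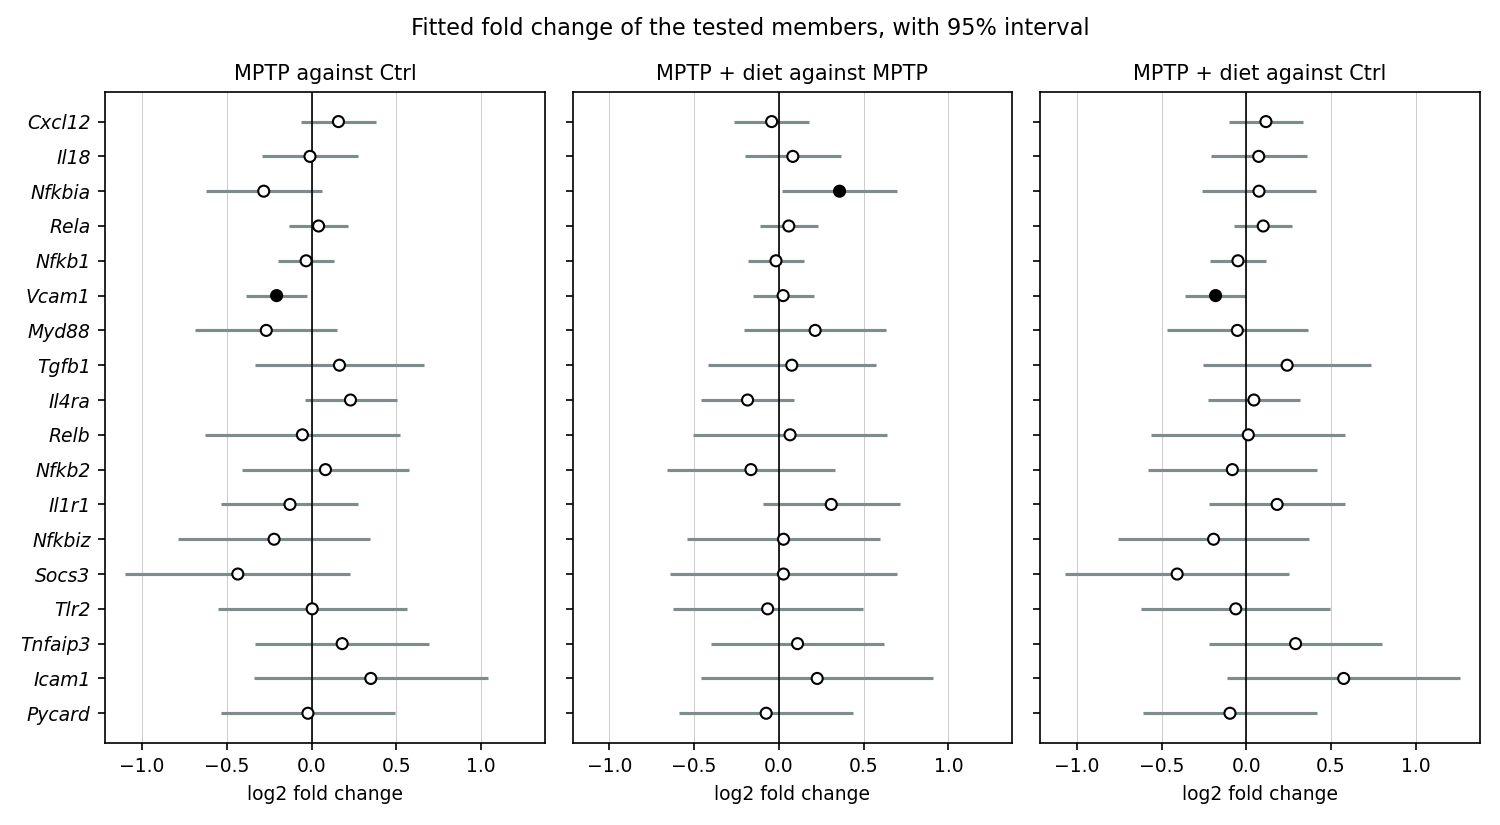
Fitted log2 fold change of the 18 tested members in the 3 comparisons, with 95% intervals as horizontal lines. Filled points have an unadjusted p under 0.05. Only Vcam1, in both comparisons with Ctrl, and Nfkbia, between the diet group and MPTP, have intervals that leave out 0.

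The tested members with a kB match did not stand apart from those without by more than these small medians. The 6 with a match (Il1r1, Nfkb2, Nfkbia, Tgfb1, Tlr2 and Tnfaip3) had median log2 fold changes of 0.0433 for MPTP against Ctrl, 0.093 for the diet group against MPTP and 0.129 for the diet group against Ctrl. The 8 with a promoter and no match had medians of 0.0164, 0.0425 and 0.0592. These medians are descriptions and were given no test.

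The wider pathways were listed beside the members: 165 genes of interleukin, TNF, Toll-like receptor, TGF-beta, chemokine, inflammasome, oxidase and adhesion signalling, of which 113 were tested. None passed in any comparison. At an unadjusted p under 0.05 there were 1 higher and 6 lower in MPTP than in Ctrl, 3 higher and 1 lower in the diet group than in MPTP, and 3 higher and 1 lower in the diet group than in Ctrl. Over all genes the shares at that mark, in the same order, were 5.36%, 7.78% and 6.73%. The groups did not overlap for 16.8%, 9.73% and 13.3% of the 113, against 10.5%, 13.7% and 12.7% of all genes.

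Several of these genes sit next to the members in the pathway. Cyba, the small partner of Cybb in the oxidase, stood at 4.31, 3.92 and 3.69 CPM in Ctrl, at 3.16, 2.68 and 2.33 CPM in MPTP and at 4.46, 3.85 and 2.90 CPM in the diet group. All 3 MPTP libraries were below all Ctrl libraries, as they were for Cybb (log2 fold change of Cyba -0.54, SE 0.225, adjusted p = 0.893). The sum of the border macrophage markers was lower as well, but of these markers singly only Mrc1 was. Tlr3, the receptor for double-stranded RNA, was higher in MPTP than in Ctrl by 0.29 on the log2 scale (adjusted p = 0.893), and Smad2, a signal carrier of Tgfb1, had means of 27.9 ± 0.464 CPM in MPTP against 33.8 ± 3.75 CPM in Ctrl (SD, n = 3). For Smad2 the log2 fold change was -0.28 (SE 0.0907, adjusted p = 0.893), with no overlap between these groups. Stat3, the transcription factor that Socs3 restrains, stood at 76.7, 68.0 and 72.8 CPM in Ctrl, at 62.2, 66.8 and 69.2 CPM in MPTP and at 63.1, 63.4 and 61.9 CPM in the diet group. Stat3 thus had all diet libraries below all Ctrl libraries (log2 fold change -0.21, adjusted p = 0.74), in the comparison in which Socs3 had a log2 fold change of -0.41. For MPTP against Ctrl the log2 fold change of Stat3 was -0.13 (adjusted p = 0.904), and the groups overlapped.

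Ackr3, the scavenging receptor of Cxcl12, was at 9.07, 9.67 and 9.51 CPM in MPTP and at 14.2, 11.2 and 11.5 CPM in the diet group, with Ctrl at 10.4, 9.91 and 11.2 CPM. The diet libraries did not overlap those of MPTP, and the log2 fold change was 0.38 (adjusted p = 0.593). Cxcl12 itself overlapped in that comparison. Il1rap, the co-receptor of Il1r1, was at 53.3, 59.2 and 46.5 CPM in MPTP and 59.5, 64.3 and 58.6 CPM in the diet group, with MPTP 2 above diet 3 (log2 fold change 0.20, adjusted p = 0.63). Ctrl stood at 57.6, 51.2 and 49.1 CPM of Il1rap, below all diet libraries (log2 fold change 0.21, adjusted p = 0.74). The alarmin Il33 was at 101, 115 and 115 CPM in Ctrl and 118, 131 and 137 CPM in the diet group, without overlap (log2 fold change 0.23, adjusted p = 0.74). Oligodendrocyte markers (9850 to 12030 CPM in Ctrl and 12581 to 13846 CPM in the diet group) and astrocyte markers (3445 to 3651 and 3716 to 3898 CPM) were also higher in all diet libraries than in all Ctrl libraries. Their part in the Il1rap and Il33 levels was not tested.

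The other genes at an unadjusted p under 0.05 are given as values of the same test. In MPTP against Ctrl, the log2 fold change was -0.19 for Birc2, a ubiquitin ligase of TNF receptor signalling, -0.195 for Traf3, a brake on the non-canonical branch, and -0.165 for the integrin chain Itgb1. In the diet group against MPTP it was 0.19 for the chemokine Cxcl14 and -0.13 for Map3k7, the kinase TAK1. In the diet group against Ctrl it was 0.34 for Unc93b1, which carries Toll-like receptors to endosomes. Adjusted p over all the genes so named ran from 0.593 to 0.904.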

How the data were processed

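RNA from 9 substantia nigra samples was sequenced, and the authors deposited 1 table that gives, per the file headers, the raw count and the FPKM of each gene in every library. The submitters' processing notes name the build GRCm38 (mm10). No aligner, counting tool, annotation or strand setting is given in the sources used here. The 10 lines naming no gene were left out. Libraries were mapped to groups by title.

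In R 4.3.3, edgeR 4.0.16 was run on the counts with TMM scaling and its robust quasi-likelihood test, 1 model holding the 9 libraries. The 14949 genes whose mean FPKM reached 0.5 entered the test. The 12390 left out held 0.189% to 0.244% of a library's counts. Adjusted p-values are Benjamini-Hochberg values over all genes tested, with a threshold of 0.05, and intervals are 95%. CPM uses TMM-scaled library sizes (factors 0.9835 to 1.015). The common biological coefficient of variation was 0.134. Scripts were tested on simulated counts. No libraries agreed within sampling noise (the lowest ratio of chi-square to its degrees of freedom between libraries of 1 group was 10.46). Same-numbered libraries of MPTP and the diet group correlated at 0.107 to 0.182 in their deviations from the group means. Such a pairing is read from the data and not from the labels. The main test did not use it: its model held no replicate block, so its values are unpaired. The block was fitted only as an alternative. The correlations were -0.151 to 0.0472 for MPTP and Ctrl and -0.00735 to 0.0783 for the diet group and Ctrl. The meningeal score is the mean log2 level of the 12 meningeal markers. All 37 members matched GENCODE M21 on GRCm38, which gave the coordinates.

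Members, gene lists and alternatives were chosen with earlier results of these data known. All members are described by level. Fold changes are given for those at an unadjusted p under 0.05 in a comparison or, where fewer than 3 were, the 3 of smallest p, and for other pathway genes at an unadjusted p under 0.05. Alternatives were RLE scaling, DESeq2 1.42.0, limma 3.58.1 on log2 FPKM with pseudocounts of 0.1 and 1, no minimum, only the groups compared, a replicate block, the meningeal score as a covariate, and libraries left out.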

Additional observations from a re-analysis of the deposited data

How the results depend on the processing

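The members called numbered 0 in all 3 comparisons under each of the 18 alternatives. The 24 gene results described in the report kept their direction and their side of the threshold in all 432 alternative values. Their adjusted p by edgeR's quasi-likelihood test was at least 0.593, so keeping their side of the threshold says little about stability. Sizes moved: log2 fold changes ran from -0.408 to -0.0505 for Nfkbia (MPTP against Ctrl) and from 0.235 to 0.878 for Icam1 (diet group against Ctrl). The number of genes called among all genes tested was 2 for MPTP against Ctrl, 0 for the diet group against MPTP and 0 for the diet group against Ctrl by edgeR, with 802, 1163 and 1006 genes at an unadjusted p under 0.05. DESeq2 called 14, 19 and 14. For MPTP against Ctrl, limma on log2 FPKM called 0 with either pseudocount, and 1 gene was called with Ctrl 3 and MPTP 1 both left out, as it was (1) once the meningeal score entered as covariate. For the diet group against MPTP, leaving out both of those libraries gave 1. For the diet group against Ctrl, 1 gene was called with no minimum and 4 with only these groups in the model. With the replicate block, 5 genes were called there, and the block changed no call of a member in any comparison. Leaving out 1 library in turn gave 0 to 4 genes for MPTP against Ctrl (4 without diet 1, 0 without Ctrl 2, Ctrl 3 or MPTP 3), 0 to 1 for the diet group against MPTP and 0 to 4 for the diet group against Ctrl (4 without MPTP 3). The cause of these moves was not tested. The depth limits the 19 members under the minimum: for those at 0 in a library, up to 0.0904 CPM could be present.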
